A study of Vulpes vulpes with 8 samples.

Results

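Desmosomes are the spot junctions that rivet keratinocytes to one another, and the genes described here encode their core: the desmogleins DSG1, DSG2 and DSG3, the desmocollins DSC1, DSC2 and DSC3, and the plaque proteins DSP, PKP1, PKP3 and JUP. The members were chosen by symbol, as every probe set to which the platform annotation gives that symbol and no other. For 9 of the 10 symbols this gave 15 probe sets of the 42924 on the array that are not controls, and DSC3, for which the annotation used here lists none, was not analysed here. DSG2 had 4 probe sets, JUP had 3, DSG1 had 2 and each of the other genes had 1. All 15 passed the filter on low signal.

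Expression was measured in gum tissue of 8 red foxes, Vulpes vulpes, with 1 array per animal. The 5 affected foxes had hereditary hyperplastic gingivitis (HHG), an inherited overgrowth of the gum: the males 19, 55 and 107 and the females 381 and 757, named here by their numbers in the labels. The 3 unaffected foxes were the males 86 and 97 and the female 402. HHG was diagnosed from early signs at the gum margin, no source used here states their ages, and the labels do not say which foxes were sampled in the pelting season and which, alive, in late spring. The array carries dog probe sets, so each value is fox RNA read through dog sequence.

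In a desmosome, desmogleins and desmocollins span the gap between neighbouring cells as calcium-dependent cadherins. Plakoglobin (JUP) and the plakophilins bind their tails on the cytoplasmic side, and desmoplakin (DSP) ties that plaque to the keratin filaments. In stratified epithelium the isoforms are layered: DSG3 and DSC3 belong mainly to the lower layers, DSG1 and DSC1 to the upper ones, and DSG2 and DSC2 are the widely distributed pair found also in simple epithelia. The gum and the lining of the mouth are rich in DSG3, the main target of the autoantibodies of mucosal pemphigus vulgaris, whereas antibodies to DSG1 cause the skin blisters of pemphigus foliaceus.

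Values below are the deposited linear signals, and every difference is affected minus unaffected on the scale log2(signal + 16), with its standard error (SE) from limma. Median signal per array ran from 28.6 to 33.7, and the background, read as the 95th percentile of 42 bacterial control probe sets, from 7.42 to 16.6. The number of arrays limits the precision. Fox 86 stood apart: the summed signal of 11 genes of suprabasal and cornifying epithelium was 9513 there and 29091 to 59215 in the other 7 foxes. KRTDAP and SBSN, secreted proteins of differentiating keratinocytes, read 62.2 and 33.1 in fox 86 and at least 4993 and 761 in each of the others. The summed signal of 7 fibroblast genes was highest in fox 86, at 30553 against 8131 to 27317, as was that of 6 leukocyte genes, at 4496 against 1035 to 3324. Differences between the groups that rest on this fox are given with and without it. In bulk tissue, fewer cells of a type and less RNA per cell cannot be told apart.

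The gene expression of the desmosomal core did not separate affected from unaffected gingiva. By the mean on the log2 scale 5 of the 9 genes were higher in affected foxes, DSG1, DSC2, DSP, PKP1 and PKP3, and 4 were lower, DSG2, DSG3, DSC1 and JUP, with differences from -0.38 to 0.36 and a median of 0.0021. Over all 10848 genes tested 45.3% had a higher mean in affected foxes and the median was -0.027. The animals themselves differed widely: DSG1 spanned a 9.91-fold range and DSP a 5.69-fold range over the 8 foxes. On the log2 scale their SD over the 8 foxes was 1.05 and 0.81, beside group differences of 0.36 and 0.29. On linear means, 2 of the 9 genes, DSG1 and DSP, were higher in affected foxes, because DSC2, PKP1 and PKP3 differed in direction between the scales.

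None of the 15 probe sets passed an adjusted p of 0.05 in limma (adjusted p = 0.99992 for each), where 0% of the 25754 probe sets tested did. At an unadjusted p under 0.05 the count was 0 of 15, against 693 or 2.69% of all probe sets. In 0 of 15 did the groups fail to overlap, against 2.43% of all. Of the probe sets 7 had higher and 8 had lower means in affected foxes.

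**Figure D1:**
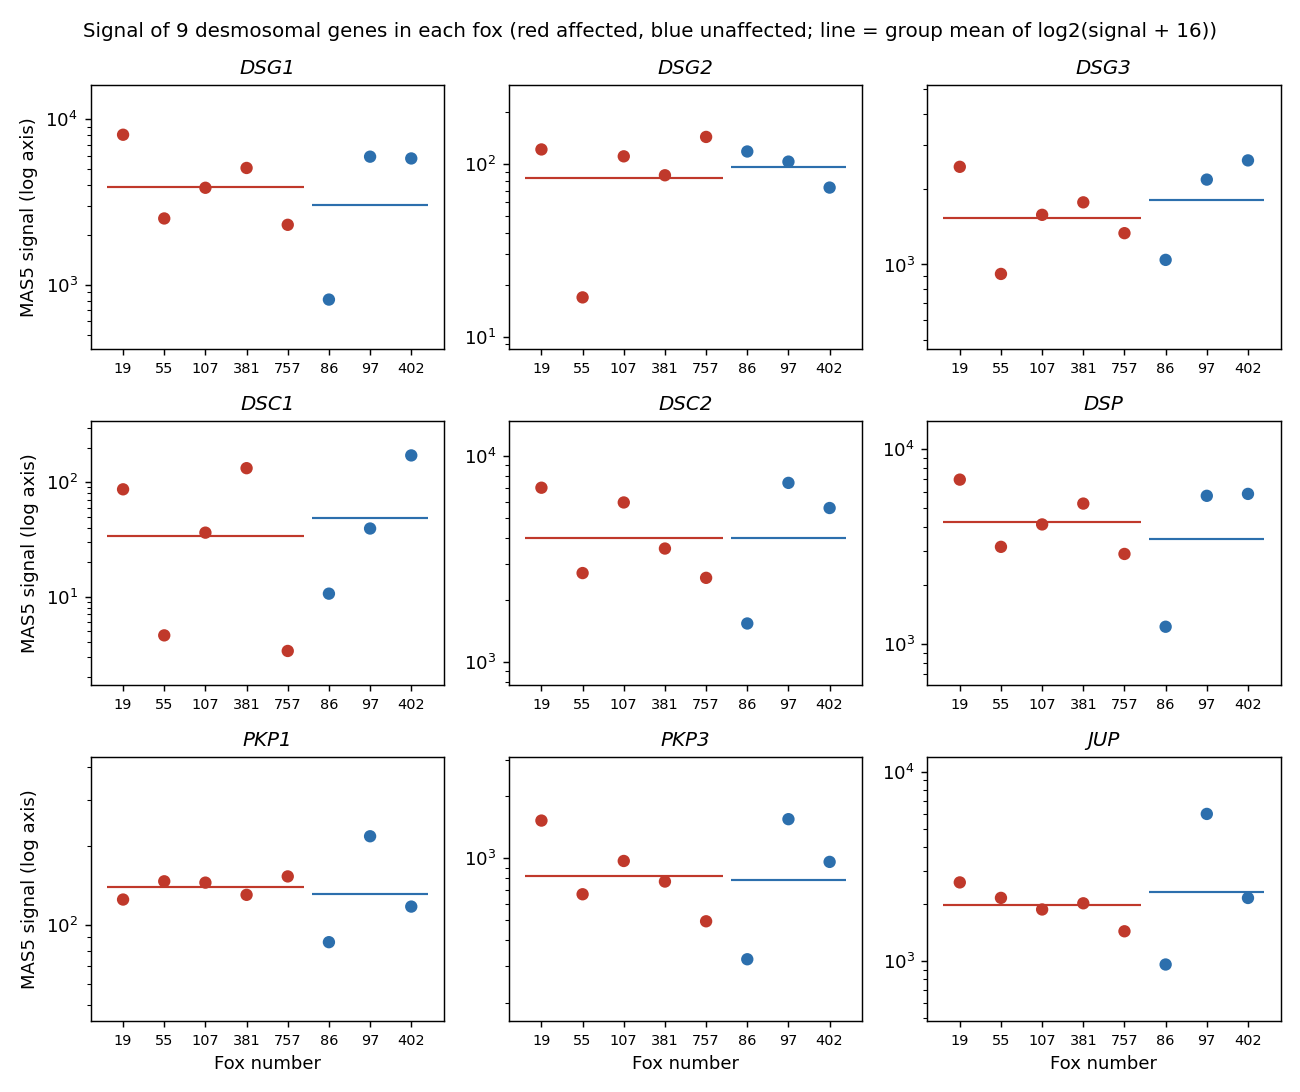
Deposited MAS5 signal (log axis) of the 9 measured desmosomal genes in each of the 8 foxes, at the probe set with the highest mean; red points are the 5 affected and blue points the 3 unaffected foxes, and lines are group means taken on log2(signal + 16). The groups overlap in every panel, and fox 86 is the lowest animal in 6 of the 9.

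Among the desmogleins, DSG1, the cadherin of the upper layers, had signals of 8067, 2516, 3857, 5081 and 2303 in affected foxes 19, 55, 107, 381 and 757. In unaffected foxes 86, 97 and 402 it read 814, 5946 and 5800. Affected fox 19 was the highest animal and unaffected fox 86 the lowest, so the unaffected values enclosed most of the affected ones. The difference was 0.36 ± 0.65 (SE; 95% interval -1.09 to 1.81), which on the fold scale runs from 0.468 to 3.51. Without fox 86 the difference was -0.58, in the opposite direction (limma adjusted p = 0.955). The second DSG1 probe set followed the first over the 8 foxes (r = 0.951) and differed by 0.094 ± 0.91. Its values spanned a 20.7-fold range, from 287 in fox 86 to 5947 in fox 19.

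DSG3, the desmoglein of the lower layers and of oral mucosa, varied less. It read 2452, 917, 1577, 1769 and 1333 in affected foxes 19, 55, 107, 381 and 757, and 1043, 2180 and 2601 in unaffected foxes 86, 97 and 402. The 2 lowest animals, foxes 55 and 86, came from different groups, and the highest was unaffected. The difference was -0.24 ± 0.36 (SE; interval -1.04 to 0.56). It was -0.63 without fox 86 and 0.020 without fox 402.

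DSG2, the desmoglein of simple epithelia and of proliferating cells, had signals of 121, 16.8, 110, 85.8 and 143 in affected foxes 19, 55, 107, 381 and 757. It read 118, 103 and 72.8 in unaffected foxes 86, 97 and 402. Fox 55 lay far below all other animals, which otherwise spanned about the same range in both groups, and its value was close to that array's background of 16.6. The difference was -0.19 ± 0.46 (SE; interval -1.21 to 0.83), and 0.21 without fox 55. Fox 55 was also the lowest animal in the other 3 DSG2 probe sets, at 34.2, 30.7 and 19.2, which differed by -0.040 ± 0.36, -0.043 ± 0.31 and 0.10 ± 0.26. Over the 8 foxes the 4 probe sets correlated with each other at r between 0.587 and 0.918.

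The 5' actin signal split the foxes into 4 high (86, 97, 107 and 757) and 4 low (19, 55, 381 and 402). The ratio of 5' to 3' actin signal reads how complete the RNA copies were. On the log2 scale it ran from -0.77 to -0.58 in the high and from -2.84 to -1.83 in the low foxes. Of the DSG2 probe sets 1 separated these sets, with 75.0 to 113 in the high and 30.7 to 67.6 in the low foxes. The probe set that stands for DSG2 did not, with 103 to 143 against 16.8 to 121. Every other member probe set also overlapped between the sets, and the share of all probe sets that separate them was not computed. Without that share, the 1 separation is a description and cannot be read as a trait of DSG2. The DSG2 difference was 0.17 within the high foxes and -0.20 within the low ones, where only fox 402 was unaffected. The part of this ratio in the DSG2 values was not tested further.

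To compare the upper with the lower layer cadherin inside each animal, the log2 value of DSG3 was subtracted from that of DSG1. The result was 1.71, 1.44, 1.28, 1.51 and 0.78 in affected foxes 19, 55, 107, 381 and 757, and -0.35, 1.44 and 1.15 in unaffected foxes 86, 97 and 402. Fox 86 was the lowest animal, and the other 7 foxes overlapped; the values compare foxes only, since levels of different probe sets cannot be set against each other. Affected foxes averaged 1.35 ± 0.35 (SD, n = 5) and unaffected foxes 0.75 ± 0.96 (SD, n = 3), a difference of 0.60 (two-sided exact permutation p = 0.214, or 0.643 adjusted over 3 such contrasts). The smallest p this design allows is 0.0179. Without fox 86 the difference was 0.049.

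Among the desmocollins, DSC2, the widely distributed form, was nearly level between the groups. It read 7017, 2699, 5950, 3552 and 2559 in affected foxes 19, 55, 107, 381 and 757, and 1535, 7408 and 5591 in unaffected foxes 86, 97 and 402. Unaffected animals held both the highest and the lowest value. The difference was 0.0021 ± 0.52 (SE; interval -1.16 to 1.16, or a fold of 0.449 to 2.23), and -0.68 without fox 86. A change of over 2-fold in either direction therefore lies inside the interval.

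DSC1, the desmocollin of cornifying layers, was dim and uneven. It read 86.7, 4.59, 36.3, 133 and 3.36 in affected foxes 19, 55, 107, 381 and 757, and 10.6, 39.4 and 172 in unaffected foxes 86, 97 and 402. Affected foxes 55 and 757 and unaffected fox 86 were not above their arrays' background, so their values have no order. The difference was -0.38 ± 0.79 (SE; interval -2.13 to 1.38), -1.02 without fox 86 and 0.39 without fox 402. Foxes 402, 381 and 19, the 3 highest in DSC1, were also the 3 highest in KRT10, the keratin of cornifying suprabasal cells, at 604, 2455 and 5124 against 44.4 to 243 in the others. The same 3 foxes led in KRT1 and KRT2, but not in the other 8 of the 11 suprabasal genes, a comparison made after the values were seen. All 3 also belong to the foxes of low 5' actin. DSC1 ran from 4.59 to 172 in that set and from 3.36 to 39.4 in the high set. The part of 5' actin in this shared order was not tested. Against DSC2 within each fox, DSC1 differed between the groups by -0.38 (exact permutation p = 0.643, adjusted 0.964), and by 0.14 without fox 402. DSC2 stood in that contrast because DSC3 could not be measured, a substitution made after the files were seen.

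Of the plaque proteins, DSP, the link to keratin, resembled DSG1. It read 6971, 3151, 4106, 5252 and 2897 in affected foxes 19, 55, 107, 381 and 757, and 1226, 5758 and 5890 in unaffected foxes 86, 97 and 402. Apart from fox 86, the unaffected animals lay near the top of the affected range. The difference was 0.29 ± 0.51 (SE; interval -0.84 to 1.42) with all foxes and -0.46 without fox 86.

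JUP (plakoglobin), which desmosomes share with adherens junctions, read 2600, 2153, 1870, 2016 and 1434 in affected foxes 19, 55, 107, 381 and 757. In unaffected foxes 86, 97 and 402 it read 957, 5985 and 2151. The affected animals lay within a 1.81-fold range, and the lowest and the highest fox were both unaffected. The difference was -0.22 ± 0.48 (SE; interval -1.29 to 0.84), -0.85 without fox 86 and 0.46 without fox 97. Fox 97 was also the highest animal in the other JUP probe sets, at 2053 and 345, and these differed by -0.23 ± 0.48 and -0.34 ± 0.45.

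PKP3, the plakophilin present through most epithelial layers, had signals of 1520, 669, 969, 771 and 495 in affected foxes 19, 55, 107, 381 and 757, and 324, 1544 and 959 in unaffected foxes 86, 97 and 402. Foxes 19 and 97, one from each group, were almost equal at the top. The difference was 0.064 ± 0.48 (SE; interval -1.01 to 1.14), -0.56 without fox 86 and -0.15 without fox 19.

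PKP1, the plakophilin that strengthens adhesion in suprabasal cells and whose loss causes skin fragility, was the steadiest member. It read 125, 147, 145, 131 and 153 in affected foxes 19, 55, 107, 381 and 757, and 86.4, 218 and 118 in unaffected foxes 86, 97 and 402. The affected animals stayed within a 1.22-fold range, inside the span of the unaffected ones. The difference was 0.081 ± 0.25 (SE; interval -0.48 to 0.64), and -0.18 without fox 86. The SD of PKP1 over the 8 foxes lay at percentile 56.6 of all genes tested, whereas those of DSC1, DSG1, DSC2 and DSP lay at percentiles 99.3, 98.6, 96.5 and 96.4. PKP1 minus PKP3 within each fox differed between the groups by 0.017 (exact permutation p = 1.0).

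**Figure D2:**
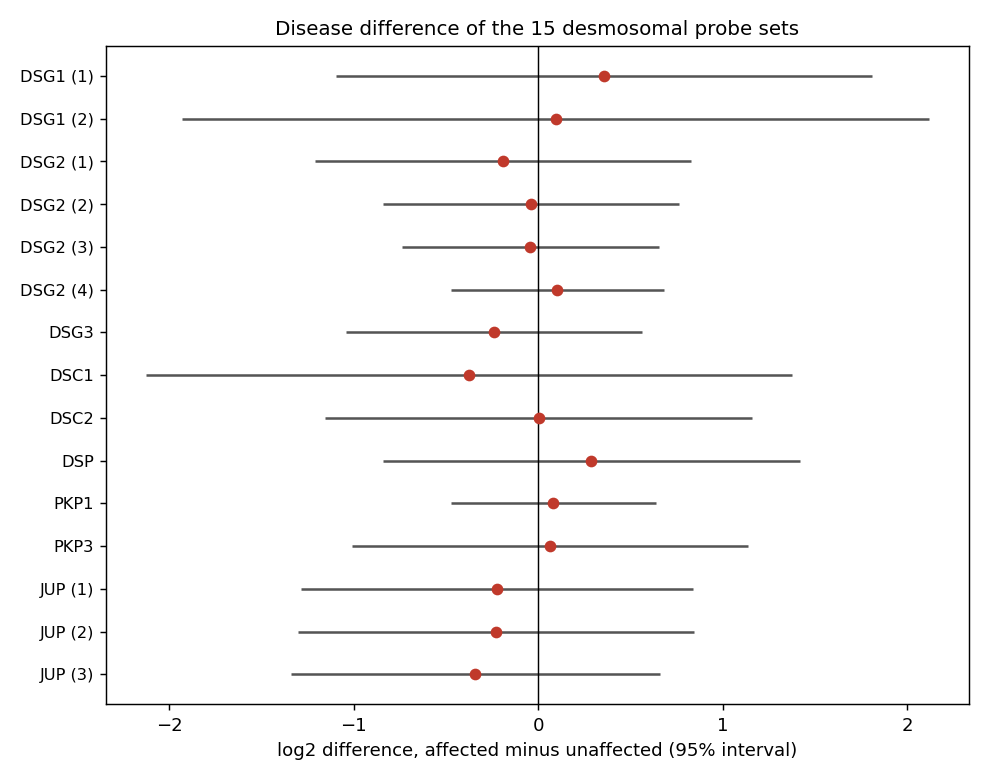
Log2 difference, affected minus unaffected, with its 95% interval from limma for each of the 15 desmosomal probe sets, numbered within a gene in order of mean signal. Every interval crosses 0, and the widest, of the second DSG1 probe set and of DSC1, reach past 2 in one direction.

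With fox 86 left out, all the members had lower means in affected foxes. DSG1, DSC2, DSP, PKP1 and PKP3 turned, while DSG2, DSG3, DSC1 and JUP were lower already. DSG2 moved closer to level, from -0.19 to -0.063. Fox 86 was unaffected and the lowest animal in 6 of the 9 genes, so leaving it out must lower the differences of those genes. Without it, 0 of the 9 genes had a higher mean in affected foxes and the median difference was -0.58, against 5 of 9 and 0.0021 with it. Over all 10848 genes tested, 5004 had a higher mean in affected foxes without it and 4915 with it. The medians over all these genes were -0.025 and -0.027. No member passed the threshold in the fit without fox 86 either, where the limma adjusted p ran from 0.955 to 0.997. Over the 8 fits that left out 1 fox each, the number of genes higher in affected foxes ran from 0 to 7 and the median difference from -0.58 to 0.45, the latter without fox 97. Without fox 19 the count was 3. For each of the 9 genes at least 1 of these fits had the opposite direction to that with all foxes.

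**Figure D3:**
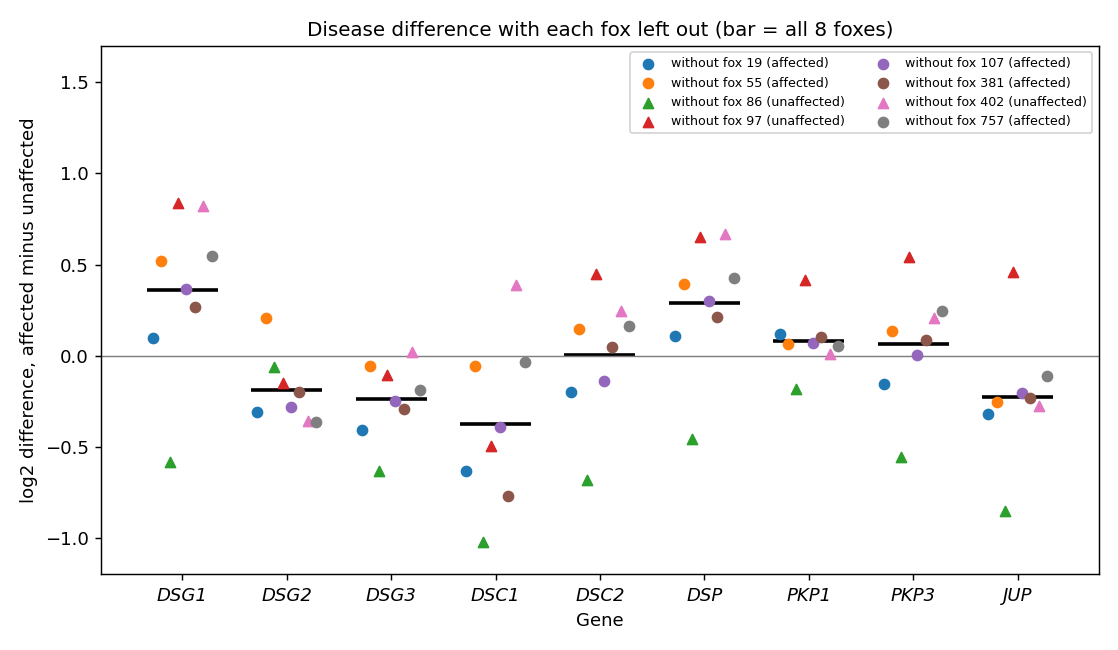
Log2 difference, affected minus unaffected, of each desmosomal gene when 1 fox was left out (points, coloured by fox, circles for affected and triangles for unaffected animals) and with all 8 foxes (black bars). Without fox 86 all 9 points lie below 0, and for each gene at least 1 point lies on the other side of 0 from the bar.

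The members were next compared by sex, with disease status in the model. In limma 1 of 25754 probe sets differed between females and males at an adjusted p under 0.05, which is 0.00388%, and it was none of the 15. That probe set, of EIF2S3, is outside the naming rule and was chosen once its values were known: its mean signal was 815 in the 5 males and 1.80 in the 3 females (adjusted p = 3.67e-06). At an unadjusted p under 0.05, 0 of 15 member probe sets differed by sex, against 2.29% of all. The largest of these differences was that of DSC1, 0.92 ± 0.78 higher in females.

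The disease difference in females minus that in males was -1.71 ± 1.39 for DSG1, -2.13 ± 1.54 for DSC1, -1.40 ± 1.11 for DSC2 and -1.34 ± 1.07 for DSP. For PKP3 it was -1.10 ± 1.05, for DSG3 -0.77 ± 0.77 and for DSG2 1.12 ± 0.99. For JUP it was -0.20 ± 1.10 and for PKP1 0.23 ± 0.59. None of the 15 probe sets passed an adjusted p of 0.05 (0% of all did) or an unadjusted p of 0.05 (2.47% of all did) in limma. Since only 1 unaffected fox was female, this contrast rests on fox 402, and the low values of fox 86 enter it on the male side. Without fox 86 it was -0.29 for DSG1, -1.60 for DSC1, -0.27 for DSC2, -0.23 for DSP and 0.0030 for PKP3. It was then -0.24 for DSG3 and 1.04 for DSG2. For JUP and PKP1 it grew in size without fox 86, to 1.11 in the opposite direction for JUP and to 0.83 for PKP1. Within males alone 7 of the 9 genes had a higher mean in affected foxes, with a median of 0.32. Without fox 86, which leaves fox 97 as the only unaffected male, 0 of 9 did, with a median of -0.52. The median over all 25754 probe sets was -0.058 within males, and the share of all genes with a higher mean was not computed there.

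Although the members did not follow disease status, several followed each other from animal to animal. Of 5 pairs tested over the 8 foxes, adjusted together, DSG1 with DSG3 gave Pearson r = 0.846 (exact permutation p = 0.00476, adjusted 0.0238) and Spearman rho = 0.857 (p = 0.0107, adjusted 0.0536). Without foxes 86 and 757, the farthest from the median of DSG1, r was 0.943. DSG1 with DSC1 gave r = 0.732 and rho = 0.738 (exact p = 0.0342 and 0.0458, adjusted 0.0854 and 0.0764), and r = 0.746 without the same animals. That rho orders the 3 foxes whose DSC1 was at background; with these tied, a setting added after the data were seen, r was 0.725 and rho 0.781 (exact permutation p = 0.0332 and 0.0315, not adjusted).

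DSP with JUP gave r = 0.744 and rho = 0.762 (exact p = 0.0513 and 0.0368, adjusted 0.0854 and 0.0764). Its r was 0.365 without foxes 86 and 757, so its size depended on those animals, and 0.758 within the affected foxes. PKP1 with PKP3 gave r = 0.591 and rho = 0.286 (exact p = 0.119 and 0.501, adjusted 0.149 and 0.626), and r = -0.69 without foxes 86 and 97. DSG2 with DSC2 gave r = 0.146 and rho = -0.095 (exact p = 0.800 and 0.840, adjusted 0.800 and 0.840), and r = -0.26 without foxes 55 and 402. A common course of DSG2 and DSC2, the pair of simple epithelia, was not detectable with 8 foxes.

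All 36 pairs of the 9 genes were then computed, a step added after the data were seen. For 12 of them Pearson r passed an adjusted exact p of 0.05. Spearman rho passed it for fewer pairs: DSG1 with DSC2, DSP and PKP3, DSG3 with DSP, and DSC2 with PKP3. DSG1 and DSP ran almost in parallel at r = 0.998 and rho = 0.976 (exact permutation, adjusted p = 8.9e-04 and 0.00714), and r was 0.996 without foxes 86 and 757. DSC2 and PKP3 ordered the 8 foxes identically, with rho = 1.0 (adjusted 0.00179) and r = 0.971 (exact permutation, adjusted p = 8.9e-04).

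Between them, DSG1, DSG3, DSC2, DSP and PKP3 gave r of 0.784 to 0.998 over 10 pairs. This group was picked from the same values, so the range is a description. DSG2 stood outside it, with r between -0.117 and 0.396 against the other 8 genes and 0 of 8 pairs past the threshold. Without foxes 55 and 402, the farthest from the median of DSG2, r ran from -0.77 with DSC1 to -0.12 with PKP1. The pair with DSG1 was not computed without these foxes. For that pair r was 0.80 without foxes 86 and 757, the farthest from the median of DSG1. JUP and PKP1 gave r = 0.812 (exact permutation, adjusted p = 0.0784) and -0.70 without foxes 86 and 97, which hold the lowest and the highest value of both genes.

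**Figure D4:**
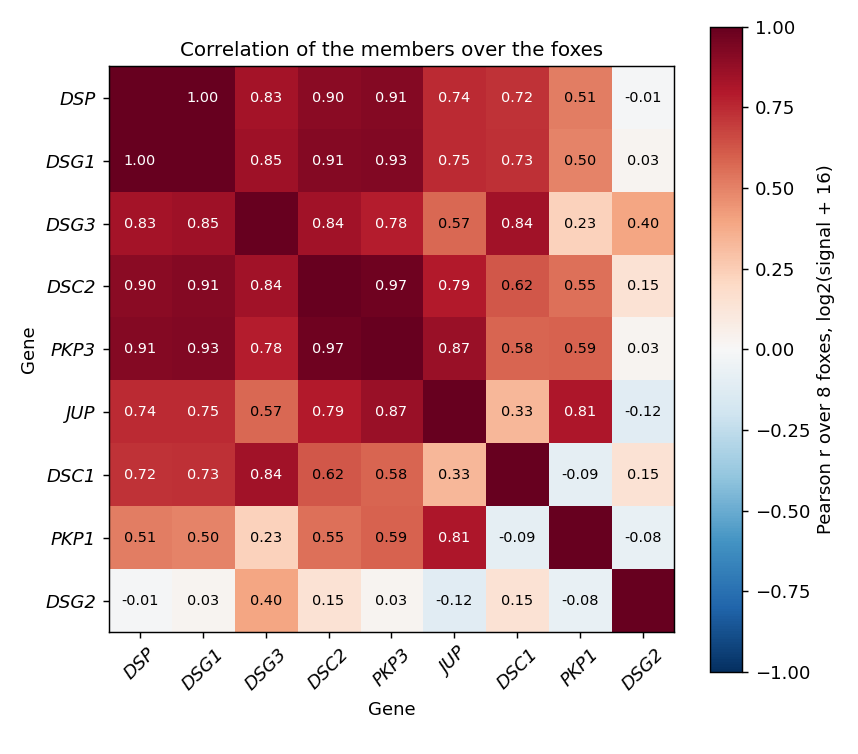
Pearson correlation over the 8 foxes between the 9 desmosomal genes, on log2(signal + 16); colour runs from -1 (blue) to 1 (red) and each cell prints r to 2 decimals. DSP, DSG1, DSG3, DSC2 and PKP3 form a block of r from 0.784 to 0.998, and the DSG2 row lies between -0.117 and 0.396.

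Ranking the foxes within each gene shows the same course. Fox 86 was the lowest animal in 6 of the 9 genes, DSG1, DSC2, DSP, PKP1, PKP3 and JUP, and fox 757 was among the 2 lowest in 5 of the 8 genes other than DSC1, whose lowest values lay at background. Fox 97 was the highest in 4 genes, DSC2, PKP1, PKP3 and JUP, and fox 19 was among the 2 highest in 7. These 4 animals comprise 2 affected and 2 unaffected foxes.

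Over all 10848 genes, the 5 whose values over the 8 foxes were most like those of DSG1 were DSP (r = 0.998), RANGAP1 (0.992), SLC15A1 (0.986), BDNF (0.985) and CSTA (0.984), the last a protease inhibitor of the cornified envelope. Those most like DSG3 were LANCL1 (0.994), IL1RL2 (0.991), SDR16C5 (0.978), CMSS1 (0.974) and ITPRID2 (0.967), and DSG1 ranked at place 272 there. Those most like DSG2 were MFSD1 (0.975), SNRK (0.960), TWSG1 (0.956), LOC489911 (0.950) and HEXIM1 (0.949), while DSG1 ranked at place 5037. With 8 foxes and 10847 genes ranked for each, these names are a description.

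Because desmosomal cadherins are layered, each member was set against a score of suprabasal and cornifying epithelium, the mean centred log2 value of 11 marker genes. Fibroblast markers served as a second score, which made 18 relations adjusted together, also added after the data were seen. DSG1 and DSP followed the suprabasal score at r = 0.972 and 0.973 (exact permutation, adjusted p = 0.00134 for both) and rho = 0.905 and 0.929 (adjusted 0.0411 and 0.0402). Without foxes 86 and 757 the r values were 0.868 and 0.853. PKP3 gave r = 0.884 (adjusted exact p = 0.0152; rho = 0.714, adjusted 0.148) and r = 0.907 without foxes 86 and 97.

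DSC2 gave r = 0.841 (adjusted exact p = 0.0263) and rho = 0.714 (adjusted exact p = 0.148). Its r was 0.468 without foxes 86 and 757, so its size depended on those animals, and 0.749 within the affected foxes. For DSG3, DSC1, JUP, PKP1 and DSG2 r was 0.727, 0.677, 0.672, 0.437 and -0.117, with adjusted exact p of 0.107, 0.153, 0.166, 0.316 and 0.723. Without the 2 foxes farthest from the median of each gene, r was 0.795, 0.686, 0.893, -0.807 and -0.350 in that order. For JUP and PKP1 these were foxes 86 and 97, and the direction for PKP1 turned. With fibroblast markers r ran from -0.66 for DSP to 0.59 for DSG2, and the adjusted exact p was at least 0.166 for each. Without the 2 farthest foxes these became -0.13 for DSP and 0.25 for DSG2. DSG3 with fibroblast markers went from -0.44 to -0.94 without foxes 55 and 86. How far the share of suprabasal cells in each piece sets these values was not tested.

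**Figure D5:**
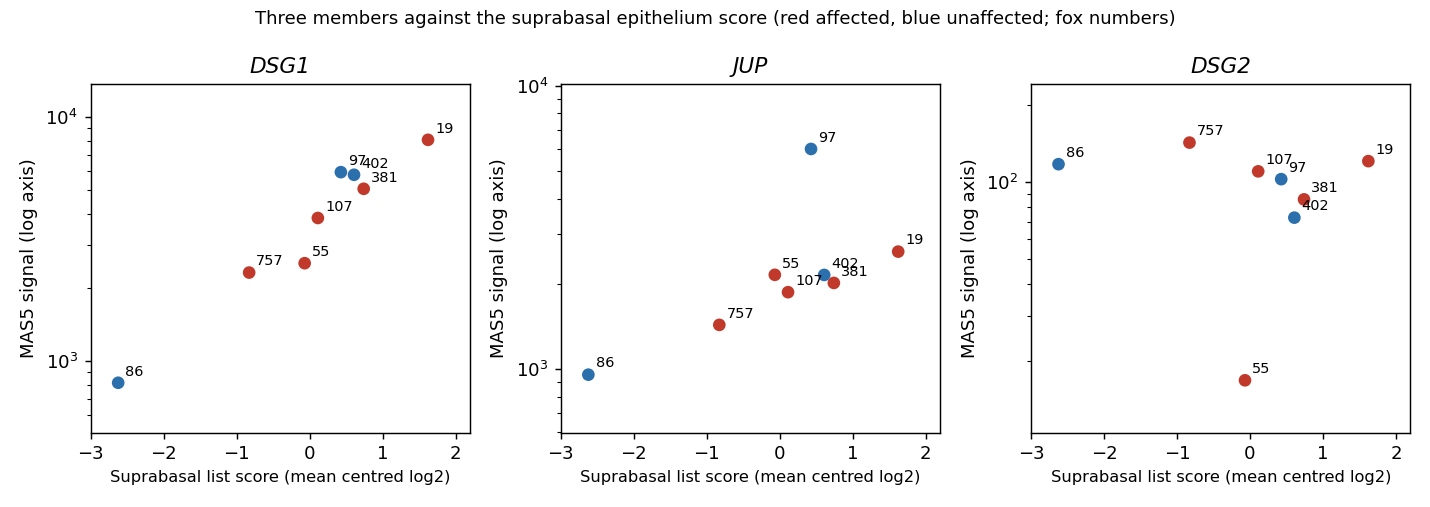
MAS5 signal (log axis) of DSG1, JUP and DSG2 in each of the 8 foxes against that fox's suprabasal score (mean centred log2 of 11 marker genes); red points are affected and blue points unaffected foxes, labelled by fox number. DSG1 climbs with the score from fox 86 to fox 19, JUP is lowest in foxes 86 and 757 and highest in fox 97 with no steady order among the others, and DSG2 shows no course.

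The markers of the tissue itself were mixed. KRT1, a keratin of cornified epithelium, read 1042 in fox 19, 36.6 in fox 381, 17.0 in fox 402 and at most 5.72 in the other 5 foxes, which were at background. KRT76, a keratin of gum and hard palate, read 1029 in fox 86 and 5621 to 16326 in the other 7. KRT5 and KRT14, the basal keratins, were not analysed here. Of the 11 suprabasal genes 10 had higher means in affected foxes (median 0.72), with 0 called, and without fox 86 3 of 11 did (median -0.46). Those with the smallest p were KRTDAP at 1.96 ± 1.42, IVL, an envelope precursor, at 0.65 ± 0.52, and KRT1 at 1.19 ± 1.15. Without fox 86 the direction turned for KRTDAP (-0.48) and IVL (-0.18), and KRT1 gave 1.09. Of 6 basal genes 4 were higher (median 0.14): TP63, the keratinocyte lineage factor, differed by -0.92 ± 0.55, the laminin chain LAMB3 by 0.28 ± 0.25 and the integrin ITGA6 by 0.17 ± 0.25. LAMB3 gave 0.44 without fox 86.

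No marker of the other cells in the piece passed the threshold. Higher means in affected foxes were found for 5 of 7 fibroblast genes (median 0.20), 1 of 5 endothelial genes (median -0.15), 5 of 6 leukocyte genes (median 0.13), 3 of 5 muscle genes (median 0.018) and 2 of 3 melanocyte genes (median 0.085), with 0 called in each list. Without fox 86 the fibroblast count was 7 of 7 (median 0.58), the endothelial 2 of 5 (-0.077), the leukocyte 6 of 6 (0.73), the muscle 3 of 5 (0.30) and the melanocyte 1 of 3 (-0.25). In the leukocyte list CD68, a lysosomal protein of macrophages, had the smallest p and differed by 1.07 ± 0.35 (limma adjusted p = 0.99992, unadjusted 0.0119). Without fox 86 it gave 1.47. Its lowest signal was 67.6 in unaffected fox 97, against 184 to 390 in the other foxes. The differences of the other leukocyte genes ran from -0.095 to 0.23.

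Other desmosome and plaque genes were read from a separate list, of which 7 of 9 were tested; 0 were called, 2 had higher and 5 had lower means in affected foxes, and their median was -0.12. Periplakin (PPL), a plakin of the cornified envelope that also meets the desmosomal plaque, read 4582, 7055, 5157, 4672 and 5426 in affected foxes 19, 55, 107, 381 and 757, and 3045, 4354 and 4755 in unaffected foxes 86, 97 and 402. Unaffected fox 402 lay above affected foxes 19 and 381, so the groups overlapped. The PPL difference was 0.41 ± 0.21 (limma adjusted p = 0.99992, unadjusted 0.0809), and the related plakin EVPL differed by 0.16 ± 0.30. Without fox 86 these were 0.22 and -0.065.

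PERP, a membrane protein of desmosomes in stratified epithelium, read 6954, 1850, 5958, 4012 and 5146 in affected foxes 19, 55, 107, 381 and 757, and 3630, 7848 and 6454 in unaffected foxes 86, 97 and 402. As with DSG3, foxes 55 and 86 were the 2 lowest. The PERP difference was -0.38 ± 0.42. Without fox 86 it was -0.70. The plakophilins PKP2 and PKP4 differed by -0.079 ± 0.30 and -0.19 ± 0.21, or by 0.33 and -0.33 without fox 86. PKP2, the plakophilin of heart and simple epithelia, was highest in fox 86, at 218 against 77.7 to 138 in the other 7. KAZN (kazrin) and PNN (pinin) differed by -0.12 ± 0.19 and -0.21 ± 0.21, or by -0.25 and -0.34 without fox 86. The median of the 7 genes was then -0.25.

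Among 13 tested genes that regulate desmosomes or cut their cadherins, 9 had higher means in affected foxes (median 0.14) and 0 were called. The kallikreins KLK7 and KLK5, serine proteases that degrade desmosomal proteins when cornified cells are shed, had the smallest p, with differences of 0.95 ± 0.60 and 0.87 ± 0.60. KLK5 read 123, 4.27, 59.5, 113 and 18.6 in affected foxes 19, 55, 107, 381 and 757, and 7.11, 28.3 and 23.3 in unaffected foxes 86, 97 and 402. Foxes 19 and 381 led, as they did for KRT10, and the groups overlapped. KLK7 was at background in 4 of the 8 foxes and KLK5 in 2, foxes 55 and 86. Without fox 86 the differences of KLK7 and KLK5 were 0.90 and 0.58. PRKCA, a kinase that loosens desmosomes, differed by -0.40 ± 0.29, or by -0.22 without fox 86.

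Among adherens junction genes, the partner system that shares JUP, 3 of 7 tested had higher means in affected foxes (median -0.067), with 0 called. P-cadherin (CDH3), of basal cells, read 220, 196, 566, 193 and 286 in affected foxes 19, 55, 107, 381 and 757, and 336, 613 and 441 in unaffected foxes 86, 97 and 402. Affected fox 107 lay among the unaffected animals, and the other 4 affected foxes lay below all of them. The CDH3 difference was -0.72 ± 0.35 (limma adjusted p = 0.99992, unadjusted 0.0664). AFDN, an actin linker of the junction, differed by 0.47 ± 0.32 and NECTIN4, an adhesion receptor, by -0.32 ± 0.26. Without fox 86 these were 0.054 and -0.61, and the list median was 0.054.

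In the fox gene table, DSC3, DSC2, DSC1, DSG1, DSG4, DSG3 and DSG2 follow one another as consecutive protein-coding genes between CDH2 and TTR. The measured neighbours DSC2 and DSC1 gave r = 0.620 over the foxes, DSC1 and DSG1 gave 0.732, and DSG3 and DSG2, at the far end, gave 0.396. After adjustment over 36 pairs none of these passed the threshold (exact permutation p = 0.197, 0.0784 and 0.518). DSG4, the hair follicle desmoglein, did not pass the filter on low signal.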

How the data were processed

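The study deposited 1 table of linear intensity values, the MAS5 signal per the submitters' processing notes, for which no source used here gives a version, background method or scaling target. Per the labels, RNA came from gum pieces kept in a stabilising solution and was labelled with a 3' in vitro transcription kit. Signals were put on the scale log2(signal + 16) and not normalized again; the offset shrinks differences of dim probe sets, and fold changes are on that scale. Controls (111) and the 40% of the remaining probe sets with the lowest mean were left out, leaving 25754 for limma 3.58.1 in R 4.3.3 (lmFit, eBayes, Benjamini-Hochberg, threshold 0.05). The median SE was 0.229. Symbols came from GEO's platform annotation, which can be old: 29254 probe sets had 1 symbol, 439 several and 13231 none. Probe sets whose name holds s_at can share probes between transcripts, and cross-reading between the cadherins was not tested. Nothing in the labels says that foxes are unrelated, and p-values measure the spread between these animals.

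Where a gene had several probe sets, that of highest mean represented it. Named were all members, all tested genes of the other desmosome list, the 3 genes of smallest p in each other list described by genes (of the lists of fibroblast, endothelial, muscle and melanocyte markers only counts are given, and of leukocytes CD68), KRT1 and KRT10, and the 5 genes most like DSG1, DSG3 and DSG2; PKP2, KRT76 and SBSN were named for fox 86 after their values were seen. The members and lists were chosen with earlier results of these data known. Exact permutation tests, two-sided, used Python 3.11.15 with numpy 2.4.6: 56 splits of the foxes for a contrast, all pairings for a correlation. The limma fit was tested on simulated data for affected against unaffected foxes (25754 probe sets, 5 draws, 200 true changes a draw). It recovered 31.0% of changes of 1 on the log2 scale, 80.6% of 2 and 94.8% of 3. These rates are averages over probe sets of every spread. The SE of the 9 desmosomal genes, from 0.25 for PKP1 to 0.79 for DSC1, all exceeded the median of 0.229. Recovery at their spread was not computed. Alternatives were other offsets, quantile normalization, no filter, sex as a covariate, males only and array weights. Further ones were the 5' actin ratio as a covariate, 2 sets of foxes by 5' actin signal, the mean of all probe sets, and each fox left out. Values of the lists, the males and the sex contrast without fox 86 were chosen later, with the data known.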

Additional observations from a re-analysis of the deposited data

Results flagged for a closer look

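Among the 5 affected foxes, each of the 15 probe sets was checked for an animal far from the rest, by its gap to the nearest value divided by the whole range on the log2 scale. In DSG2 the lowest affected animal, fox 55 at 16.8, gave 0.717, and in the second JUP probe set the highest, fox 19 at 969, gave 0.713, both just past the limit for 5 samples. Chance flags about 1 in 20 groups. Fox 55 was the lowest in all 4 DSG2 probe sets, and fox 19 was the highest affected animal in all 3 JUP probe sets, where unaffected fox 97 read higher still. The group of 3 unaffected foxes, with fox 86, was not checked in this way.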

How the results depend on the processing

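Under each alternative run 0 probe sets were called for disease or for its difference between sexes (the interaction could not be fitted without fox 402). Where 1 unaffected fox remained, as among foxes of low 5' actin, it is assumed to vary like the others. With array weights 1 of 9 members, and within foxes of low 5' actin 2, had a higher mean in affected foxes. Leaving out 1 fox gave 0 to 7 such members, a median of -0.58 to 0.45, and 1 to 2 probe sets called by sex, the other being of CMPK1 without fox 55, chosen after its values were seen. The same fits gave differences of -0.58 to 0.84 for DSG1, -0.36 to 0.21 for DSG2, -0.63 to 0.020 for DSG3, -1.02 to 0.39 for DSC1, -0.68 to 0.45 for DSC2, -0.46 to 0.67 for DSP, -0.18 to 0.41 for PKP1, -0.56 to 0.54 for PKP3 and -0.85 to 0.46 for JUP. They gave 0.049 to 0.95 for DSG1 minus DSG3, -0.94 to 0.14 for DSC1 minus DSC2 and -0.19 to 0.37 for PKP1 minus PKP3.

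Directions turned as follows, and the cause was not tested. DSC2 gave -0.0012 with an offset of 64, -0.087 after quantile normalization, -0.24 with array weights, -0.056 with the actin covariate and -0.46 in low 5' actin foxes. Array weights gave -0.075 for DSG1, 0.0079 for DSG2, -0.056 for DSP, -0.046 for PKP1 and -0.23 for PKP3. The actin covariate gave 0.22 for DSG2 and -0.072 for PKP3, and foxes of high 5' actin gave 0.17 and -0.038. Foxes of low 5' actin gave -0.31 for DSG1, -0.27 for DSP, -0.055 for PKP3 and 0.060 for JUP. Males only gave 0.016 for DSG3 and 0.32 for DSC1. Directions held but sizes moved by over 1.5 times for DSG1 (0.085), DSP (0.068), DSC1 (-0.83), PKP1 (0.14) and JUP (-0.34) with the actin covariate, and for DSG1 (0.95), DSP (0.75), DSC2 (0.51), PKP3 (0.47), DSG2 (-0.61), PKP1 (0.0014) and JUP (-0.13) in males. They did so for DSC1 (-0.77) and DSG2 (-0.30) at an offset of 1, for DSC1 (-0.20), DSG2 (-0.081) and PKP1 (0.047) at 64, for PKP1 (0.15) and DSP (0.19) after quantile normalization, and for DSG1 (0.23) and DSG2 (-0.042) as means of all probe sets. So did JUP (-0.59), DSG3 (-0.38) and DSC1 (-0.57) with array weights, DSC1 (-1.46), DSG3 (-0.71) and PKP1 (0.16) in low 5' actin foxes, and JUP (-0.55), DSG3 (-0.057) and DSC2 (0.21) in high ones; DSC2 gave 0.014 with sex as a covariate and 0.0032 at an offset of 1. PKP1 minus PKP3 gave -0.0012 with an offset of 64 and -0.47 in males. Without the 2 farthest foxes, r turned to -0.26 for DSG2 with DSC2 and to -0.69 for PKP1 with PKP3, and DSG1 with DSC1 gave 0.746 at an exact permutation p of 0.0819. DSC1 minus DSC3 and DSG3 with DSC3 were not run, since DSC3 was not measured here. No paired analysis was possible because the groups share no replicate numbers.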
